A study of Triticum turgidum subsp. durum with 36 samples.

Results

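TaFRO1 is a wheat member of the ferric chelate reductase (FRO) family, and 2 of the 80168 loci with deposited counts carry its homoeologous copies on the long arms of chromosomes 2A (TaFRO1 2AL) and 2B (TaFRO1 2BL). Both were taken by their locus identifiers, and they are described here in flag leaves of tetraploid wheat of 3 genotypes at 3 time points, with 36 libraries in 9 groups of 4 biological replicates. In the contigs of the IWGSC wheat survey sequence used by the authors, TaFRO1 2AL is the locus 2AL-ab-k71_contigs_longerthan_200_6359919:3261-8064 (contig 6359919 of arm 2AL, from 3261 to 8064, 4804 bp) and TaFRO1 2BL is 2BL-ab-k71_contigs_longerthan_200_8039865:2256-6860 (contig 8039865 of arm 2BL, from 2256 to 6860, 4605 bp). Each contig carries no other locus with counts. The loci are stretches of transcribed genomic DNA, introns included, and their exons and UTRs were not analysed here.

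The genotypes were gpc-A1, with a premature stop codon in GPC-A1, gpc-A1/gpc-B2, with stop codons in GPC-A1 and GPC-B2, and WT sibling plants with neither mutation. GPC1 and GPC2 are NAC transcription factors, and GPC1 speeds up senescence of the wheat leaf and the export of nitrogen, zinc and iron to the grain. The mutations came from TILLING (chemical mutagenesis followed by a screen of the target gene) in the variety Kronos, to which the lines had been backcrossed, so each mutant stands for a single mutated allele per gene in this background. In Kronos the GPC-B1 copy is not functional, so all 3 genotypes share this deficiency. The GPC-A2 copy remained intact in gpc-A1/gpc-B2. Plants were grown in a greenhouse, and a single entire flag leaf was taken for each library at heading (HD), at 12 days after anthesis (12 DAA) or at 22 DAA. In replicate 1 of gpc-A1 at HD the genotype field of the label reads wild type, while the title reads gpc-A1, which was used here, and leaving out this library changed no call of a TaFRO1 locus or of the ratio of the copies.

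FRO proteins are membrane enzymes that pass electrons to ferric iron outside a membrane and so yield ferrous iron, the form that most iron transporters carry. In Arabidopsis, FRO2 serves iron uptake at the root surface and FRO7 lies in the chloroplast envelope, where it supports iron import. The chloroplasts hold most of the iron of a leaf, in photosystem I, the cytochrome b6-f complex and ferredoxin, and this iron is released when a leaf senesces.

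The deposited values are raw counts of uniquely mapped reads, and the totals ranged from 13754124 to 48981831 per library. Normalized counts are counts divided by a size factor of the library (median of ratios), so a level is relative to the other transcripts of the same leaf. TaFRO1 2AL had 8585 to 57773 reads per library and TaFRO1 2BL 8087 to 70748, and both loci together took 0.084% to 0.477% of the counts of a library. By mean normalized count, a scale not corrected for length, TaFRO1 2BL ranked 44th and TaFRO1 2AL 60th of the 80168 loci, so counting error is small beside the spread between leaves. The tissue was checked with light harvesting genes (20 loci described as chlorophyll a-b binding proteins or the like), which took 0.5% to 6.07% of the counts of every library.

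In gpc-A1, mean TaFRO1 levels were highest at HD and lowest at 22 DAA, where 1 leaf stood apart. The leaves at HD and at 12 DAA overlapped for both copies. TaFRO1 2AL had 30387, 44751, 21864 and 22574 normalized counts at HD, 25898, 19490, 36226 and 15860 at 12 DAA, and 13416, 10477, 10632 and 27743 at 22 DAA. TaFRO1 2BL had 39172, 49311, 34045 and 26341 normalized counts at HD, 29001, 28949, 41384 and 16074 at 12 DAA, and 8543, 7570, 9997 and 21573 at 22 DAA. Replicate 4 at 22 DAA was the high leaf for both copies, and it also had the highest share of light harvesting genes of the gpc-A1 leaves at 22 DAA, at 2.3%, against 0.65% to 1.77%. With this leaf included, TaFRO1 2AL overlapped between 22 DAA and HD, but TaFRO1 2BL did not.

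In gpc-A1/gpc-B2, the leaves at 12 DAA formed a high and a low pair. TaFRO1 2AL had 24938, 23154, 37987 and 17515 normalized counts at HD, 30408, 8969, 10700 and 23036 at 12 DAA, and 15308, 9934, 15757 and 7748 at 22 DAA. TaFRO1 2BL had 34305, 35714, 41464 and 25467 normalized counts at HD, 34359, 7328, 11404 and 25283 at 12 DAA, and 11107, 10835, 16177 and 8382 at 22 DAA. Replicates 2 and 3 at 12 DAA were within the range of the leaves at 22 DAA or below it for both copies, and replicates 1 and 4 were above that range. The share of light harvesting genes separated the same leaves, with 1.41% and 1.58% in replicates 2 and 3 and 3.41% and 2.43% in replicates 1 and 4. The leaves of this group thus varied most of the 9 groups, with a coefficient of variation of 55.96% for TaFRO1 2AL and 63.7% for TaFRO1 2BL.

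In WT, the 3 time points were ordered in the same way, and only 1 leaf blurred them. TaFRO1 2AL had 49573, 45498, 45542 and 19977 normalized counts at HD, 21165, 19155, 29332 and 21915 at 12 DAA, and 16674, 18760, 18706 and 11919 at 22 DAA. TaFRO1 2BL had 58742, 50905, 61191 and 24813 normalized counts at HD, 30749, 27207, 36297 and 26837 at 12 DAA, and 17844, 10803, 18449 and 8258 at 22 DAA. For both copies every leaf at 22 DAA lay below every leaf at HD and every leaf at 12 DAA, whereas the leaves at 12 DAA and HD overlapped because of 1 leaf. This leaf, replicate 4 at HD, had less than the other WT leaves at HD for both copies, and its light harvesting genes took 2.7% of the counts, against 5.17% to 6.07% in the other 3.

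**Figure D1:**
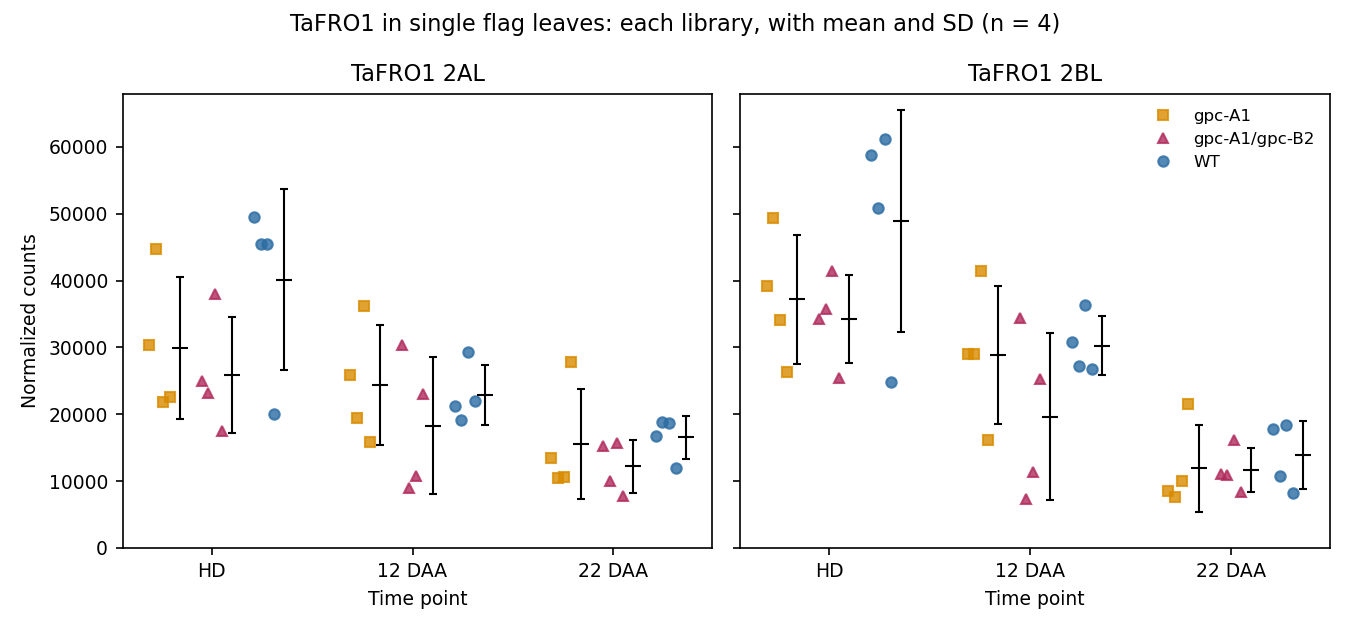
Normalized counts of TaFRO1 2AL and TaFRO1 2BL in each library, by time point and genotype, with the mean and SD of each group (black bars, n = 4). The leaves at 22 DAA lie below those at HD in every genotype except for the gpc-A1 leaf with 27743 normalized counts of TaFRO1 2AL, and the WT leaf with 19977 at HD stands apart from the other WT leaves at HD.

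Ordered by mean, the 9 groups formed a gradual series for each copy. For TaFRO1 2BL the order ran from WT at HD, with 48913 ± 16655 normalized counts (SD, n = 4), through both mutants at HD (gpc-A1 higher), then WT and both mutants at 12 DAA, then WT and gpc-A1 at 22 DAA, to gpc-A1/gpc-B2 at 22 DAA, with 11625 ± 3273. For TaFRO1 2AL it ran from 40148 ± 13582 to 12187 ± 3969 in the same groups, with gpc-A1 above WT at 12 DAA. In all 8 pairs of neighbours of each order the leaves overlapped and the means differed by less than the larger SD.

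The comparison of 22 DAA with HD asks how TaFRO1 changes from heading to an early stage of senescence. The study saw no chlorophyll loss in the flag leaves at any of the 3 time points. A locus was called differentially expressed (DE) when 4 tests passed, namely edgeR and DESeq2 (adjusted P of at most 0.01 over the 75375 loci tested), the Mann-Whitney-Wilcoxon rank test (P of at most 0.05) and the parametric test on normalized counts that the study's methods name (P of at most 0.01). Under this rule, as run here, only TaFRO1 2BL in gpc-A1/gpc-B2 was DE. It fell to 11625 ± 3273 normalized counts at 22 DAA, against 34238 ± 6617 at HD (SD, n = 4 each), a log2 fold change of -1.56 with a standard error (SE) of 0.24 (adjusted P = 0.001476 in edgeR and 2.733e-09 in DESeq2). In this comparison 2.56% of all loci were called lower, 6.05% in DESeq2 alone, and 10.5% were lower in every leaf at 22 DAA than in any leaf at HD. TaFRO1 2AL did not pass in gpc-A1/gpc-B2, with 12187 ± 3969 normalized counts at 22 DAA and 25898 ± 8658 at HD and a log2 fold change of -1.10 (SE 0.29, adjusted P = 0.0236 in edgeR), although its leaves did not overlap either. With a replicate block, since samples with 1 replicate number were sequenced together, TaFRO1 2AL passed in edgeR (log2 fold change -1.10, edgeR adjusted P = 0.0025), but it was not DE, as it missed the threshold of the parametric test, which has no block. The call of TaFRO1 2BL was lost without replicate 1, 2 or 3 of gpc-A1/gpc-B2 at HD, where the log2 fold change was -1.57, -1.55 and -1.46 and the edgeR test still passed. A bulk leaf sample does not tell fewer cells of a type from less RNA per cell.

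In gpc-A1, TaFRO1 2BL had 11921 ± 6512 normalized counts at 22 DAA, against 37217 ± 9634 at HD (SD, n = 4 each), a log2 fold change of -1.67 (SE 0.39, adjusted P = 0.02186 in edgeR and 0.0002102 in DESeq2). Its leaves did not overlap, as for 9.99% of all loci in this direction, and 0.702% of all loci were called lower, 4.75% in DESeq2 alone. TaFRO1 2AL had 15567 ± 8229 normalized counts at 22 DAA and 29894 ± 10631 at HD, a log2 fold change of -0.98 (SE 0.39, adjusted P = 0.1215 in edgeR). Without the high leaf, replicate 4 of gpc-A1 at 22 DAA, TaFRO1 2BL was DE with a log2 fold change of -2.13. Without the leaf whose label fields name different genotypes, replicate 1 at HD, the log2 fold changes were -1.65 for TaFRO1 2BL and -0.97 for TaFRO1 2AL, and neither was DE.

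In WT the log2 fold changes of both copies at 22 DAA were larger than in the mutants, but neither copy met the rule as run here. The study, with its own run of 4 tests, marked TaFRO1 2BL as significantly lower during senescence in WT, and did not mark TaFRO1 2AL. This mark does not say which pair of WT time points it rests on, and here TaFRO1 2BL was DE in no such pair. The tools differ between the runs, with DESeq2 here in place of DESeq. The source of the different call for TaFRO1 2BL was not tested. TaFRO1 2BL had 13838 ± 5088 normalized counts at 22 DAA, against 48913 ± 16655 at HD (SD, n = 4 each), a log2 fold change of -1.82 (SE 0.36), which missed the edgeR threshold narrowly (adjusted P = 0.01053) and passed in DESeq2 (adjusted P = 8.894e-06). TaFRO1 2AL had 16515 ± 3214 normalized counts at 22 DAA and 40148 ± 13582 at HD, a log2 fold change of -1.28 (SE 0.31, adjusted P = 0.02254 in edgeR and 0.000408 in DESeq2). The leaves of both time points did not overlap for either copy, as for 9.83% of all loci in the same direction, while 0.885% of all loci were called lower, 5.18% in DESeq2 alone. Of all loci tested, 2.61% had a log2 fold change as low as that of TaFRO1 2BL and 5.39% one as low as that of TaFRO1 2AL, and the median over all loci was 0.01. Both copies were DE without replicate 4 of WT at HD, the leaf with few light harvesting reads, with log2 fold changes of -2.04 for TaFRO1 2BL and -1.50 for TaFRO1 2AL. With the replicate block, TaFRO1 2BL passed in edgeR (log2 fold change -1.82, edgeR adjusted P = 0.003773) and TaFRO1 2AL did not (-1.22, edgeR adjusted P = 0.01479). Neither was DE, as both missed the threshold of the parametric test.

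The comparisons with 12 DAA divide this period. At 12 DAA over HD, the log2 fold changes of both copies in the 3 genotypes lay between -0.79 and -0.30, and none was called (edgeR adjusted P of 0.1268 or more), where 0.0783% of all loci were called lower in gpc-A1, 0.504% in gpc-A1/gpc-B2 and 0.371% in WT. Without replicate 4 of WT at HD both copies were DE in WT at 12 DAA, with log2 fold changes of -1.01 for TaFRO1 2AL and -0.89 for TaFRO1 2BL. At 22 DAA over 12 DAA in WT, TaFRO1 2BL had a log2 fold change of -1.15 (SE 0.27, adjusted P = 0.03 in edgeR and 0.0006425 in DESeq2) and TaFRO1 2AL one of -0.49 (SE 0.21, adjusted P = 0.1671 in edgeR). In gpc-A1 the log2 fold changes at 22 DAA over 12 DAA were -1.26 (SE 0.42, adjusted P = 0.1801 in edgeR) for TaFRO1 2BL and -0.64 (SE 0.40, adjusted P = 0.4356) for TaFRO1 2AL, and in gpc-A1/gpc-B2 they were -0.75 (SE 0.42, adjusted P = 0.8881) and -0.59 (SE 0.39, adjusted P = 0.9226). None of these 6 was DE. The leaves of both time points did not overlap for either copy in WT, as for 8.2% of all loci in this direction, while 0.358% were called lower and 3.26% passed in DESeq2 alone.

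The 12 sets of leaves that share a genotype and a replicate number, and were sequenced together, gave the same direction for TaFRO1 2BL. Its log2 change at 22 DAA over HD was negative in 12 of 12 sets, between -2.70 and -0.29. That of TaFRO1 2AL was negative in 11 of 12, between -2.09 and 0.30, and the positive value was that of the high gpc-A1 leaf.

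**Figure D2:**
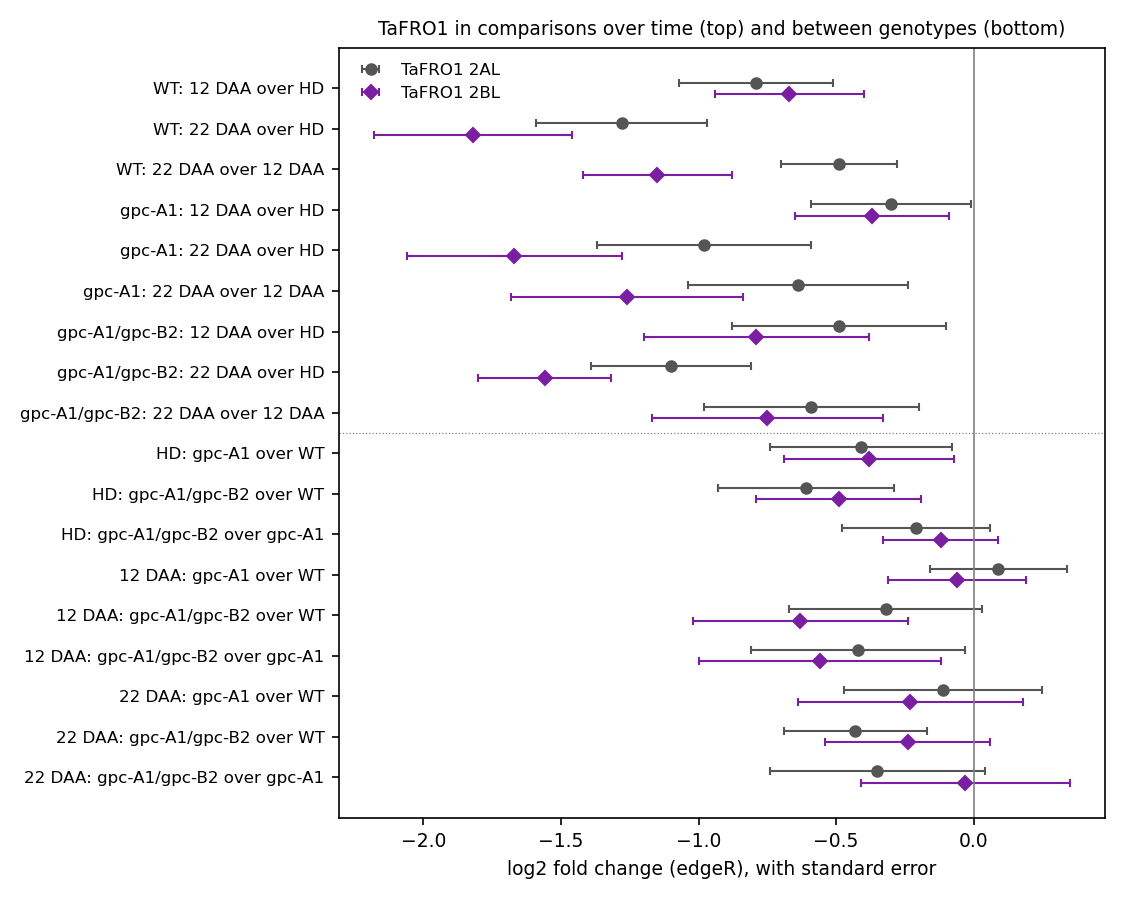
Log2 fold changes of TaFRO1 2AL (circles) and TaFRO1 2BL (diamonds) from edgeR, with their standard errors, in 9 comparisons between time points and 9 between genotypes. Values below 0 mean a lower level at the later time point, in a mutant than in WT or in gpc-A1/gpc-B2 than in gpc-A1, and the largest changes are those of TaFRO1 2BL at 22 DAA over HD (-1.82 in WT).

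The comparisons between genotypes ask whether TaFRO1 depends on GPC1 or GPC2. None of the 18 tests of the 2 copies in 9 comparisons was called by the 4-test rule, by edgeR alone or by DESeq2 alone, and in edgeR none had an unadjusted P under 0.05. The log2 fold changes lay between -0.63 and 0.09, and 17 of 18 were negative. Of all loci, 0% were called at HD in gpc-A1 over WT, 0.00133% in gpc-A1/gpc-B2 over WT and 0.00133% in gpc-A1/gpc-B2 over gpc-A1. At 12 DAA these shares were 0.304%, 1.25% and 0.171%, and at 22 DAA they were 0%, 0.0942% and 0.0119%. At 12 DAA, TaFRO1 2BL had 28852 ± 10334 normalized counts in gpc-A1, against 30272 ± 4387 in WT (SD, n = 4 each), a log2 fold change of -0.06 (SE 0.25, adjusted P = 0.9421 in edgeR). In gpc-A1/gpc-B2 at 12 DAA it had 19593 ± 12489 normalized counts, against 30272 ± 4387 in WT, a log2 fold change of -0.63 (SE 0.39, adjusted P = 0.3257 in edgeR). For TaFRO1 2AL at 12 DAA the log2 fold change was 0.09 (SE 0.25) in gpc-A1 over WT and -0.32 (SE 0.35) in gpc-A1/gpc-B2 over WT. The light harvesting loci had a median log2 fold change of -0.11 in gpc-A1 and -0.90 in gpc-A1/gpc-B2 in these comparisons, and 0 and 19 of 20 were lower with an unadjusted edgeR P under 0.05, beside 6.68% and 13.7% of all loci (0 and 2 by DESeq2, 0 and 0 by the 4-test rule). At 22 DAA the log2 fold changes of TaFRO1 over WT were -0.11 (SE 0.36) and -0.23 (SE 0.41) in gpc-A1 and -0.43 (SE 0.26) and -0.24 (SE 0.30) in gpc-A1/gpc-B2, for TaFRO1 2AL and TaFRO1 2BL in that order. With such errors, differences of the size seen were not detectable, and the tests do not show that the genotypes are alike.

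The change over time was also compared between genotypes. In 12 tests of the interaction of genotype and time, the log2 change of a mutant minus that of WT lay between -0.19 and 0.51, none was called and none had an unadjusted P under 0.05 (lowest edgeR adjusted P = 0.842, also none by DESeq2). Of all loci, edgeR called an interaction of gpc-A1 with time in 0.0239% at 12 DAA over HD and in 0% at 22 DAA over HD or over 12 DAA, and one of gpc-A1/gpc-B2 with time in 0.161% at 12 DAA over HD, 0.0212% at 22 DAA over HD and 0% at 22 DAA over 12 DAA. For 22 DAA over HD, TaFRO1 2BL gave 0.16 (SE 0.54) for gpc-A1 minus WT and 0.25 (SE 0.44) for gpc-A1/gpc-B2 minus WT. The difference between a call of TaFRO1 2BL in gpc-A1/gpc-B2 and none in WT was thus not supported by a test of the difference itself.

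The homoeologs were compared with each other within a library, where depth and normalization cancel. The share of the TaFRO1 reads that came from the 2BL copy was over 50% in 12 of 12 libraries at HD (52.2% to 60.9%), in 11 of 12 at 12 DAA (44.96% to 59.8%) and in 4 of 12 at 22 DAA (36.5% to 52.2%). Counting error was small beside these ranges, since the 95% Wilson intervals reached at most 0.735 percentage points to each side. Reads that fit both copies equally were left out by the authors, and how much of each copy can be told from the other was not tested, so a share of 50% need not mean equal transcript levels. Whether this loss of reads was the same in all libraries was not tested.

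In gpc-A1 the 2BL share was 56.3%, 52.4%, 60.9% and 53.9% at HD, 52.8%, 59.8%, 53.3% and 50.3% at 12 DAA, and 38.9%, 41.9%, 48.5% and 43.7% at 22 DAA. For gpc-A1/gpc-B2 leaves it was 57.9%, 60.7%, 52.2% and 59.3% at HD, 53.1%, 44.96%, 51.6% and 52.3% at 12 DAA, and 42.05%, 52.2%, 50.7% and 51.96% at 22 DAA. In WT it was 54.2%, 52.8%, 57.3% and 55.4% at HD, 59.2%, 58.7%, 55.3% and 55.0% at 12 DAA, and 51.7%, 36.5%, 49.7% and 40.9% at 22 DAA. In all 3 genotypes the leaves at 22 DAA did not overlap with those at HD. In gpc-A1/gpc-B2 this rests on a difference below counting error, since the highest share at 22 DAA and the lowest at HD were both 52.2%.

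The 2BL share was lower at 22 DAA than at HD. In gpc-A1 it averaged 43.3% ± 4.0 at 22 DAA and 55.9% ± 3.7 at HD, in gpc-A1/gpc-B2 it averaged 49.2% ± 4.8 at 22 DAA and 57.5% ± 3.7 at HD, and in WT it averaged 44.7% ± 7.2 at 22 DAA and 54.9% ± 1.9 at HD (SD, n = 4 each). With labels permuted within genotypes, the mean change in the log2 ratio of 2BL to 2AL reads at 22 DAA over HD was -0.61 (two-sided exact permutation test, P = 5.831e-06, reached by 2 of 343000 arrangements, adjusted P = 1.749e-05 over 3 pairs of time points), and the ratio was lower at 22 DAA in 12 of 12 sets that share a genotype and a replicate number. At 22 DAA over 12 DAA it was -0.48 (exact permutation P = 0.0008105, adjusted P = 0.001216) and lower in 11 of 12 sets. At 12 DAA over HD it was -0.13 (exact permutation P = 0.1623) and lower in 9 of 12 sets.

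Within single genotypes, 4 leaves against 4 cannot give an exact permutation P under 0.02857, and over the 18 comparisons this smallest value was 0.08571 after adjustment. At 22 DAA over HD the log2 ratio differed by -0.73 in gpc-A1, -0.48 in gpc-A1/gpc-B2 and -0.60 in WT, each with this smallest P. Of 27 other pairs of metal gene copies, 9, 9 and 12 reached the same P in these genotypes, in either direction. For TaFRO1 it was also reached at 22 DAA over 12 DAA in gpc-A1 (-0.63) and WT (-0.72), but not in gpc-A1/gpc-B2 (-0.07, exact permutation P = 0.5429). With 1 library left out, the exact permutation P of the differences at this smallest value was over 0.05 in 19 of 48 cases and at most 0.08571. In gpc-A1/gpc-B2 the 2BL share was already 50.5% ± 3.7 at 12 DAA, against 57.1% ± 2.2 in WT at 12 DAA (SD, n = 4 each), a difference in the log2 ratio of -0.38 with no overlap (exact permutation P = 0.02857, adjusted P = 0.08571). Without replicate 2 of gpc-A1/gpc-B2 at 12 DAA, 1 of the pair of leaves with few TaFRO1 reads, it was -0.28 (exact permutation P = 0.05714). Scaled to library total and locus length (RPKM), the level of TaFRO1 2BL in gpc-A1/gpc-B2 was 141.1 ± 41.1 at 22 DAA and 354.8 ± 68.3 at HD, and that of TaFRO1 2AL was 140.9 ± 43.4 at 22 DAA and 258.3 ± 91.8 at HD (SD, n = 4 each). Per length, TaFRO1 2BL was above TaFRO1 2AL in 4 of 4 libraries of each genotype at HD, and at 22 DAA in 0 of 4 in gpc-A1, 3 of 4 in gpc-A1/gpc-B2 and 2 of 4 in WT.

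**Figure D3:**
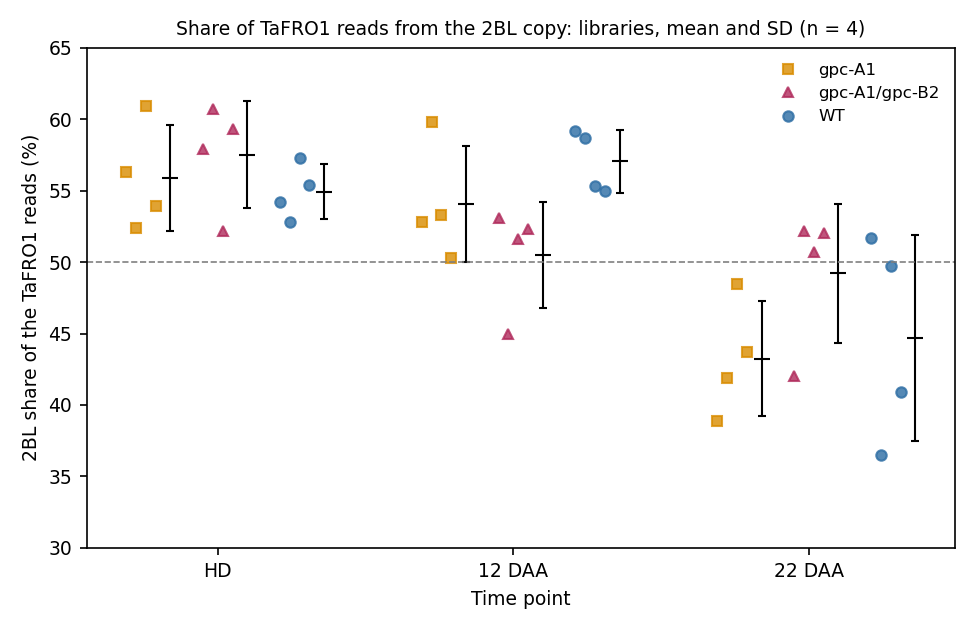
Share (%) of the TaFRO1 reads of each library that came from the 2BL copy, by time point and genotype, with the mean and SD of each group (black bars, n = 4) and a dashed line at 50%. All 12 leaves at HD lie above the line and 8 of 12 leaves at 22 DAA lie below it.

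Within a genotype, a fall in the share of the B copy was not particular to TaFRO1. Among 27 other metal transport or chelator genes with a matched locus on the A and on the B genome, 7 had at least as large a fall in the log2 ratio of B to A as TaFRO1 at 22 DAA over HD in WT, as did 4 in gpc-A1 and 3 in gpc-A1/gpc-B2. No pair did so in all 3 genotypes. TaZIFL1, for example, changed by -1.34 in WT, -0.71 in gpc-A1 and -0.82 in gpc-A1/gpc-B2 (exact permutation P = 0.02857, 0.1714 and 0.4286). In gpc-A1 it fell just short of the -0.73 of TaFRO1. Its 3B locus had few reads, with a mean of 4.65 normalized counts at 22 DAA in WT. In WT the changes of these pairs ranged from -1.34 to 4.40. The smallest exact permutation P, 0.02857, was reached in all 3 genotypes by TaYSL18, TaZIFL3 and TaZIP6, each with a rise. TaYSL18 changed by 1.45 in WT, 1.34 in gpc-A1 and 1.32 in gpc-A1/gpc-B2.

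Both TaFRO1 copies varied together from leaf to leaf. Their log2 normalized counts had a Pearson correlation of 0.93 over the 36 libraries, and of 0.905 after subtraction of the group means. The 5 described loci most like their mean over the 36 libraries were a chlorophyllide a oxygenase on 3AL (r = 0.948), which makes chlorophyll b, chlorophyll a-b binding proteins on 6BS (0.944) and 6AS (0.942), a DUF246 domain protein on 5AL (0.942) and a mitochondrial-like 54S ribosomal protein on 2AS (0.941). They ranked 3rd to 8th among 25033 loci with a mean normalized count of at least 100, over which the median correlation was 0.009. Over the 780 described loci from which they were taken the median was 0.543. The described loci least like it were a glutamine synthetase GS1b on 6AL (-0.825), an enzyme that makes glutamine for export from senescing leaves, a phospholipase D on 3AS (-0.824) and an isocitrate dehydrogenase on 3B (-0.812). These correlations are descriptions over libraries that share time points, genotypes and the composition of the leaf RNA.

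Within groups, the leaves rich in TaFRO1 were the leaves rich in light harvesting transcripts. After subtraction of the group means, the sum of both TaFRO1 copies had a Pearson correlation of 0.83 (Spearman 0.81) with the mean of 20 light harvesting loci over the 36 libraries, and of 0.80 without the 2 libraries farthest from the median of that mean. Within the 4 sets of 9 libraries that were sequenced together it was 0.74, 0.74, 0.68 and 0.94. It was 0.84 for 23 loci of the photosystems and of oxygen evolution, 0.79 for 10 of chlorophyll and heme synthesis and -0.43 for 5 of iron storage, chelation and cluster assembly. The value of this last list was -0.22 without the 2 libraries farthest from its median. For its single loci the median correlation of deviations with the mean of both TaFRO1 copies was -0.005, with 2 of 5 positive. Over the 780 described loci that median was 0.399. The part of the leaf's general state in the TaFRO1 differences was not tested.

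**Figure D4:**
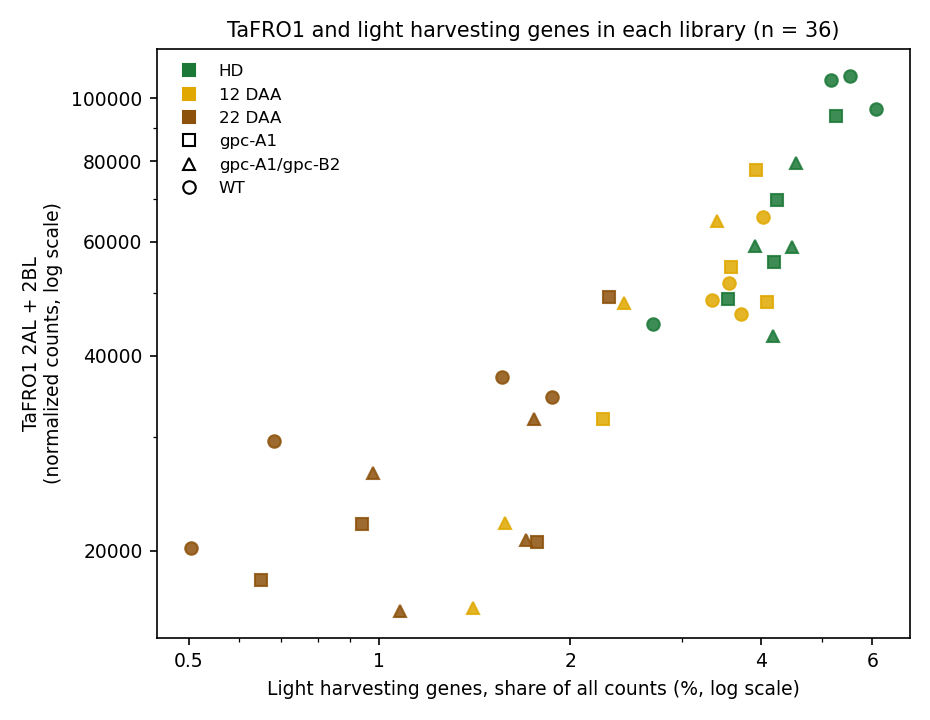
Sum of TaFRO1 2AL and TaFRO1 2BL (normalized counts, log scale) against the share of all counts in 20 light harvesting loci (%, log scale) in each of the 36 libraries, with colours for time points and symbols for genotypes. Both measures are mostly low at 22 DAA and high at HD. An exception is the gpc-A1 leaf with a TaFRO1 sum of 49316 at 22 DAA, above the WT leaf with 44790 at HD. The gpc-A1/gpc-B2 leaves at 12 DAA with 1.41% and 1.58% light harvesting counts lie among the leaves of 22 DAA.

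By the 4-test rule, genes of the chloroplast were mostly called in gpc-A1/gpc-B2, as TaFRO1 2BL was, but more of all loci were called there too. At 22 DAA over HD the rule called 2.56% of all loci lower in gpc-A1/gpc-B2, 0.702% in gpc-A1 and 0.885% in WT. The lists were built from the descriptions of the most abundant loci. At 22 DAA over HD, 20 of 20 light harvesting loci were DE and lower in gpc-A1/gpc-B2, with a median log2 fold change of -1.86, beside 0.01 over all loci. In gpc-A1 0 of 20 met the 4-test rule and 19 of 20 were lower in DESeq2 alone, with a median of -1.83, beside 0.03 over all loci, and in WT the counts were 0 and 20, with a median of -2.25. In both genotypes 20 of 20 were lower with an unadjusted edgeR P under 0.05, beside 13.9% of all loci in gpc-A1 and 14.4% in WT, the background for the counts at this P in the lists that follow. The log2 fold changes in WT ranged from -4.38 to -1.33 for 2 chlorophyll a-b binding loci on 5BL, and the -1.82 of TaFRO1 2BL lay within this range, whereas the -1.28 of TaFRO1 2AL was smaller in size than that of every locus of the list. For 13 loci of iron or copper carriers of the electron transport chain, 11 were DE and lower in gpc-A1/gpc-B2 (median -1.28), and 0 in gpc-A1 (median -1.09) and WT (median -1.07), where DESeq2 alone called 12 each and 13 and 12 had an unadjusted edgeR P under 0.05. In WT their extremes were a cytochrome b6-f complex subunit 7 on 5BL (-2.33) and a ferredoxin-NADP reductase on 7AS (-0.39).

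Of 10 loci of chlorophyll and heme synthesis, 6 were DE and lower at 22 DAA in gpc-A1/gpc-B2 (median -1.40), and 0 in gpc-A1 (median -1.45) and WT (median -1.88), where DESeq2 alone called 9 each and 10 each had an unadjusted edgeR P under 0.05. A protochlorophyllide reductase on 2BL, which acts in chlorophyll synthesis in the light, had 76.5 normalized counts at 22 DAA in WT and 16930 at HD. The smallest change of the list in WT was that of a chlorophyllide a oxygenase on 3B (-1.07). Among 23 photosystem loci, 20 were DE and lower in gpc-A1/gpc-B2, 1 in gpc-A1 and 0 in WT (21 in WT by DESeq2 alone or by an unadjusted edgeR P under 0.05), and in WT their log2 fold changes ranged from -2.29 for a photosystem I reaction centre subunit on 2BL to 0.85 for a photosystem II 10 kDa protein on 6AL. Among 14 loci of Rubisco and its activase, 10 were DE and lower in gpc-A1/gpc-B2 and 0 in gpc-A1 and WT, where DESeq2 alone called 10 each and 11 and 10 had an unadjusted edgeR P under 0.05. Their extremes in WT were a small chain locus on 2BS (-4.20) and an activase locus on 4BS (2.19), neither of them DE.

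Loci of iron storage, chelation and cluster assembly were not called, but their list is short. None of the 5 was DE at 22 DAA over HD in any genotype, by the 4-test rule or by DESeq2 alone. Of all loci, 4.39% met the rule in either direction in gpc-A1/gpc-B2, 1.06% in gpc-A1 and 2.15% in WT. In DESeq2 alone these shares were 12.5%, 11.8% and 11%. Beside such shares, 0 of 5 does not set the list apart from all loci. An unadjusted edgeR P under 0.05 was found for 0 in gpc-A1 and gpc-A1/gpc-B2 and for 1 in each direction in WT, and in WT they lay between -0.43 for an iron-sulfur cluster assembly enzyme on 3B and 0.54 for a nicotianamine synthase 9 on 2BS. Ferritin 1a, which stores iron in the plastid, had 9097 ± 4350 normalized counts at 22 DAA in WT and 7956 ± 5742 at HD on 5BL (SD, n = 4 each), with a log2 fold change of 0.18 (SE 0.56, adjusted P = 0.8685 in edgeR), and 5659 ± 1997 against 4315 ± 2864 on 5AL. Among 7 metallothionein loci, small proteins that bind zinc and copper, 3 were DE and higher at 22 DAA over HD in WT, as were 1.26% of all loci, with a metallothionein-like protein 1 on 1BS highest (2.08). Another, a metallothionein-like protein 4a on 3AS, was DE and lower (-0.98), and the lowest value, -1.14 for a type 3 locus on 3AS, was not called. Of 5 loci of chlorophyll breakdown 2 were DE and higher in WT, with a locus described as pheophorbide a, chloroplastic, on 4AL highest (1.53) and one on 2BS lowest (-1.87).

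The second FRO gene of this series, TaFRO2 on 2BL, was matched to a locus with low counts (contig 7949123, 1345 to 4424) that ranked 46730th by mean normalized count. It had 71.2, 71.0, 45.1 and 8.88 normalized counts at HD in WT, 9.74, 7.11, 10.1 and 4.17 at 12 DAA, and 11.7, 3.37, 7.23 and 13.7 at 22 DAA. The leaf with 8.88 was replicate 4, which was also the low WT leaf at HD for TaFRO1. In gpc-A1, TaFRO2 was DE at 12 DAA over HD, with 8.79 ± 2.54 normalized counts at 12 DAA and 40.4 ± 9.77 at HD (SD, n = 4 each, log2 fold change -2.17, SE 0.30, edgeR adjusted P = 0.006024), and at 22 DAA over HD (-3.62, SE 0.48, edgeR adjusted P = 0.003101). In the other genotypes TaFRO2 did not meet the 4-test rule. At 12 DAA over HD it had log2 fold changes of -2.57 (SE 0.44, edgeR adjusted P = 0.008154) in gpc-A1/gpc-B2 and -2.74 (SE 0.55, edgeR adjusted P = 0.01218) in WT, and at 22 DAA over HD of -2.75 (SE 0.48, edgeR adjusted P = 0.002842) in gpc-A1/gpc-B2 and -2.44 (SE 0.61, edgeR adjusted P = 0.02567) in WT. TaFRO1 in the same gpc-A1 comparison of 12 DAA with HD had log2 fold changes of -0.30 and -0.37.

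Other metal genes did differ between genotypes at the time at which TaFRO1 was not called. At 12 DAA, 13 of 71 matched loci of metal transport and chelator synthesis were DE and lower in gpc-A1 than in WT, 14 were DE and lower in gpc-A1/gpc-B2 than in WT, and 0 were DE and higher, beside 0.202% and 0.827% of all loci called lower in gpc-A1 and gpc-A1/gpc-B2. They were copies of TaNAAT1 and TaNAAT2 (nicotianamine aminotransferases, which act in phytosiderophore synthesis), TaZIFL7, TaZIP3, TaZIP7, TaZIP10, TaZIP10-like1, TaZIP13-like2 and TaZIP13-like3, where ZIP proteins carry zinc and iron into the cytoplasm. TaZIP13-like3 on 2BL had a log2 fold change of -3.63 in gpc-A1 over WT (SE 0.38, edgeR adjusted P = 0.0003024). A metallothionein type 3 on 3AS was DE and higher in gpc-A1/gpc-B2 than in WT (1.33), and none of the 7 metallothioneins was DE in gpc-A1. At 22 DAA over HD in WT, the log2 fold changes of the 71 loci ranged from -5.71 for TaZIFL1 on 3B to 7.01 for TaZIP10-like1 on 7BL, and their median was 0.21.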

How the data were processed

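Single flag leaves were sequenced in 36 libraries (single reads, TruSeq RNA kit), in the 9 groups of the labels. The authors aligned reads with GSNAP to IWGSC survey contigs of both genomes, obtained the uniquely mapped reads of each locus with HTSeq, and deposited these raw counts without normalization beside the positions of 139828 loci. The kit does not mark strand, so antisense reads were not told apart.

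The members and lists were chosen with earlier results of these data known. The 75375 loci that had over 3 reads in 2 or more replicates of any group were tested in R 4.3.3. Each comparison used its 8 libraries and each interaction 16. The tools were edgeR 4.0.16 (quasi-likelihood, TMM) and DESeq2 1.42.0 in place of the DESeq named in the methods. Counts scaled by size factors (median of ratios) were tested with a Mann-Whitney-Wilcoxon test (normal approximation without continuity correction) and a Welch t-test. The methods name a t-test without its variant. Adjusted P values are Benjamini-Hochberg values, and standard errors derive from the F statistic of edgeR. All tests were two-sided, and the procedure was tested on simulated data. Ratios of copies were compared with exact permutation tests over libraries in Python 3.11.15 and scipy 1.17.1, and figures drawn with matplotlib 3.10.9. Intervals cover counting error only.

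Named genes were both TaFRO1 copies, TaFRO2, the extremes of each list at 22 DAA over HD in WT, list members called between genotypes at 12 DAA, and the 5 described loci most and 3 least like TaFRO1; the ferritins, a metallothionein on 3AS, the electron transport and light harvesting values at 12 DAA were added after their values were seen. Lists came from descriptions of 782 abundant loci, and each metal gene was assigned the locus of its arm with the mean normalized WT counts tabulated in the study, within 1 count (71 of 112 entries). Entries whose tabulated WT means were all below 40 were not matched. Markers of green leaf were the light harvesting and Rubisco lists.

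Replicate numbers pair samples, because by the methods each replicate of the 9 groups shared its sequencing lanes. The correlation of deviations from group means averaged 0.012 between equal numbers (26 of 144 pairs over 0.1) and -0.004 between other numbers (66 of 432). Alternatives were other size factors, library totals, no filter, single tools, other thresholds, 1 fit over all groups, the replicate block and leaving out each library. In the replicate block and the fit over all groups a locus passed by edgeR alone (adjusted P of 0.01 or less). No chromosome positions, exons or sequences of the 2 loci were analysed here.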

Additional observations from a re-analysis of the deposited data

Results flagged for a closer look

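In 36 sets of 4 leaves tested with Dixon's ratio, of which chance flags about 1 in 20, 3 had a leaf apart from the rest. TaFRO1 2AL was low in replicate 4 of WT at HD, with 19977 normalized counts (Dixon's ratio 0.862), and high in replicate 4 of gpc-A1 at 22 DAA, with 27743 (0.830). The 2BL share was low in replicate 1 of gpc-A1/gpc-B2 at 22 DAA, with 42.05% (ratio 0.851).

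The change in the ratio of the copies was compared between gpc-A1/gpc-B2 and WT in tests chosen after the values were seen. The log2 change at 12 DAA over HD was lower by 0.54 in gpc-A1/gpc-B2 than in WT (difference -0.54, exact permutation P = 0.009796, adjusted P = 0.05878 over 6 such tests), and that at 22 DAA over 12 DAA was higher, with a difference of 0.65 (exact permutation P = 0.0351, adjusted P = 0.1053). Neither passed after adjustment. In gpc-A1 the differences were -0.23 and 0.09.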

How the results depend on the processing

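Of 1074 values from alternatives for TaFRO1 levels, interactions and ratios, 993 kept their direction and their side of the threshold. By DESeq2 alone, 5 more changes were called, namely those at 22 DAA over HD of TaFRO1 2AL (-1.28) and TaFRO1 2BL (-1.82) in WT, of TaFRO1 2BL in gpc-A1 (-1.65) and of TaFRO1 2AL in gpc-A1/gpc-B2 (-1.09), and that of TaFRO1 2BL at 22 DAA over 12 DAA in WT (-1.14). Thresholds of 0.05 added the same 5 (-1.28, -1.82, -1.67, -1.10 and -1.15). In edgeR alone, which without a block called TaFRO1 2BL in gpc-A1/gpc-B2 at 22 DAA over HD, 1 fit over all groups added TaFRO1 2BL at 22 DAA over HD in WT (-1.82) and gpc-A1 (-1.68). The replicate block, also in edgeR alone, added TaFRO1 2BL in WT (-1.82) and TaFRO1 2AL in gpc-A1/gpc-B2 (-1.10) at 22 DAA over HD and changed no other call of a locus. TaFRO1 2BL in gpc-A1/gpc-B2 over gpc-A1 at 22 DAA, not called, turned to 0.07 with library totals and to 0.10 with the block. For the ratio, a block of 4 pairs cannot give an exact P under 0.125, so 6 differences no longer passed, with values unchanged, at 22 DAA over HD (-0.73 in gpc-A1, -0.48 in gpc-A1/gpc-B2, -0.60 in WT), at 22 DAA over 12 DAA (-0.63 in gpc-A1, -0.72 in WT) and in gpc-A1/gpc-B2 over WT at 12 DAA (-0.38). Over all 12 pairs at 22 DAA over HD the exact P was 0.0004883. The cause was not tested beyond this.

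Leaving out 1 library at a time, log2 fold changes of TaFRO1 2AL and TaFRO1 2BL ranged from -1.01 to -0.68 and from -0.89 to -0.57 at 12 DAA over HD in WT, and from -1.50 to -1.16 and from -2.04 to -1.64 at 22 DAA over HD in WT. TaFRO1 2BL at 22 DAA over HD ranged from -2.13 to -1.49 in gpc-A1 and from -1.77 to -1.43 in gpc-A1/gpc-B2. Some differences between genotypes, none of them called, kept their sign, and all of those in gpc-A1/gpc-B2 over WT stayed negative. Others changed sign. For TaFRO1 2AL and TaFRO1 2BL they ranged from -0.45 to 0.05 and from -0.26 to 0.05 in gpc-A1/gpc-B2 over gpc-A1 at HD, from -0.16 to 0.24 and from -0.29 to 0.12 in gpc-A1 over WT at 12 DAA, and from -0.50 to 0.12 and from -0.23 to 0.45 in gpc-A1/gpc-B2 over gpc-A1 at 22 DAA, and for TaFRO1 2AL from -0.55 to 0.06 in gpc-A1 over WT at 22 DAA. Interactions for TaFRO1 2AL and TaFRO1 2BL ranged from -0.12 to 0.58 and from -0.30 to 0.38 (gpc-A1 minus WT, 22 DAA over HD), from -0.61 to 0.09 and from -0.60 to 0.09 (gpc-A1 minus WT, 22 DAA over 12 DAA) and from -0.07 to 0.55 and from -0.55 to 0.15 (gpc-A1/gpc-B2 minus WT, 12 DAA over HD), and for TaFRO1 2AL from -0.33 to 0.27 (gpc-A1/gpc-B2 minus WT, 22 DAA over 12 DAA). Differences in the log2 ratio at 22 DAA over HD ranged from -0.84 to -0.64 in gpc-A1, from -0.59 to -0.35 in gpc-A1/gpc-B2 and from -0.73 to -0.44 in WT, at 22 DAA over 12 DAA from -0.73 to -0.52 in gpc-A1, from -0.18 to 0.06 in gpc-A1/gpc-B2 and from -0.86 to -0.56 in WT, and at 12 DAA over HD in gpc-A1/gpc-B2 from -0.51 to -0.30. Between genotypes they ranged from -0.04 to 0.12 (gpc-A1 over WT at HD), from -0.29 to -0.10 (gpc-A1 over WT at 12 DAA), from -0.43 to -0.28 (gpc-A1/gpc-B2 over WT at 12 DAA) and from -0.24 to 0.06 (gpc-A1 over WT at 22 DAA). Of the 6 differences in the log2 ratio with an exact P of 0.02857, this P was over 0.05 without 1 library in 19 of 48 cases, namely without any 1 leaf of WT at HD (22 DAA over HD in WT), of WT at 12 DAA (22 DAA over 12 DAA in WT), of gpc-A1 at 12 DAA (22 DAA over 12 DAA in gpc-A1) or of gpc-A1/gpc-B2 at 22 DAA (22 DAA over HD in gpc-A1/gpc-B2), without replicate 3 of gpc-A1 at HD (22 DAA over HD in gpc-A1), and without replicate 1 of WT or replicate 2 of gpc-A1/gpc-B2 at 12 DAA (gpc-A1/gpc-B2 over WT). It was gained without replicate 3 of gpc-A1/gpc-B2 at HD (12 DAA over HD, -0.51) and without replicate 2 of gpc-A1 at 12 DAA (gpc-A1 over WT, -0.29).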

Other observations

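TaFRO1 2BL and TaFRO1 2AL had lower mean normalized counts in both mutants than in WT already at HD, without passing any test. TaFRO1 2AL had 29894 ± 10631 in gpc-A1, 25898 ± 8658 in gpc-A1/gpc-B2 and 40148 ± 13582 in WT, and TaFRO1 2BL had 37217 ± 9634, 34238 ± 6617 and 48913 ± 16655 in the same groups (SD, n = 4 each). The log2 fold changes over WT were -0.41 and -0.38 in gpc-A1 and -0.61 and -0.49 in gpc-A1/gpc-B2, for TaFRO1 2AL and TaFRO1 2BL in that order (edgeR adjusted P of 0.8304 or more). Replicate 4 of WT at HD lay below every gpc-A1 leaf at HD for both copies, and the other 3 WT leaves were the 3 highest of the 12 leaves at HD for both copies.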
